A study of Mus musculus with 6 samples.

Results

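Interferon-induced genes are those that cells switch on after interferon binds its receptor, and 37 of them, listed by symbol, were followed among 21442 genes. All 37 were found on the array. The rule that picks them uses the gene symbol and no measured value, but the list was drawn up with earlier results of these data known. The samples were mouse natural killer (NK) cells, innate lymphocytes that kill infected and tumour cells. Spleen cells of C57BL/6 mice (the strain field of the labels reads C57BL/5) were depleted of T cells with anti-Thy1.2 and complement and kept for 7 days in interleukin-2 at 1000 IU. CD3-CD122+ cells were then sorted into a Ly49C/I+ group that lacked Ly49G2 and a Ly49G2+ group that lacked Ly49C/I, with 3 arrays each. Both groups therefore shared the strain, the depletion and the interleukin-2, and no group was treated with interferon. The labels give neither the age of the mice nor whether arrays came from separate mice or cultures, so p-values speak only of the spread among these arrays, and part of it may be technical.

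Type I interferons signal through the receptor chains IFNAR1 and IFNAR2 and the kinases JAK1 and TYK2 to STAT2. STAT2 acts with IRF9 in a complex that binds a DNA element of repeated GAAA motifs, the interferon-stimulated response element. The products sense viral nucleic acid, block translation or degrade RNA, restrict viral entry and release, and feed back on the pathway. NK cells respond to type I interferon, which raises their cytotoxicity, and are themselves a main source of interferon gamma.

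Ly49C/I+ cells had more Stat2 (1.32-fold), Xaf1 (1.29-fold), Ifit2 and Oas1a (both 1.27-fold), and Oasl1 (1.15-fold). Ly49G2+ cells had more Ifi204 (1.23-fold) and Mx1 (1.17-fold). The other 30 of the 37 did not pass, among them the commonly used indicators of an interferon response Isg15, Ifit1, Rsad2 and Usp18. The 5 genes higher in Ly49C/I+ cells were 13.5% of the 37, where 6.16% of all 21442 genes passed in that direction. The 2 higher in Ly49G2+ cells were 5.41%, against 3.72%. These shares of all genes include dim genes, whereas 29 of the 37 lay above the median signal. With only genes above it tested, 4 of the 29 passed toward Ly49C/I+ cells, against 1606 of 10721 genes. Toward Ly49G2+ cells 2 of the 29 passed, against 941 of 10721. In neither direction was the share of the interferon-induced genes the higher one there. Of the 37, 0 differed by 1.5-fold or more (0.494% of all genes did and passed). The log2 differences of the 37 ran from -0.29 to 0.40 with a median of 0.062, against a median of -0.010 over all genes, and 26 of them (70.3%) lay above 0, against 45.7% of all genes. Differences are Ly49C/I+ minus Ly49G2+ in log2 signal and were tested with limma on all genes, with Benjamini-Hochberg adjusted p-values and a threshold of 0.05. The calls depended on how exon-level probe sets were combined: with their median in place of their mean, 0 of the 37 passed in either direction (3.17% of all genes did).

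**Figure D1:**
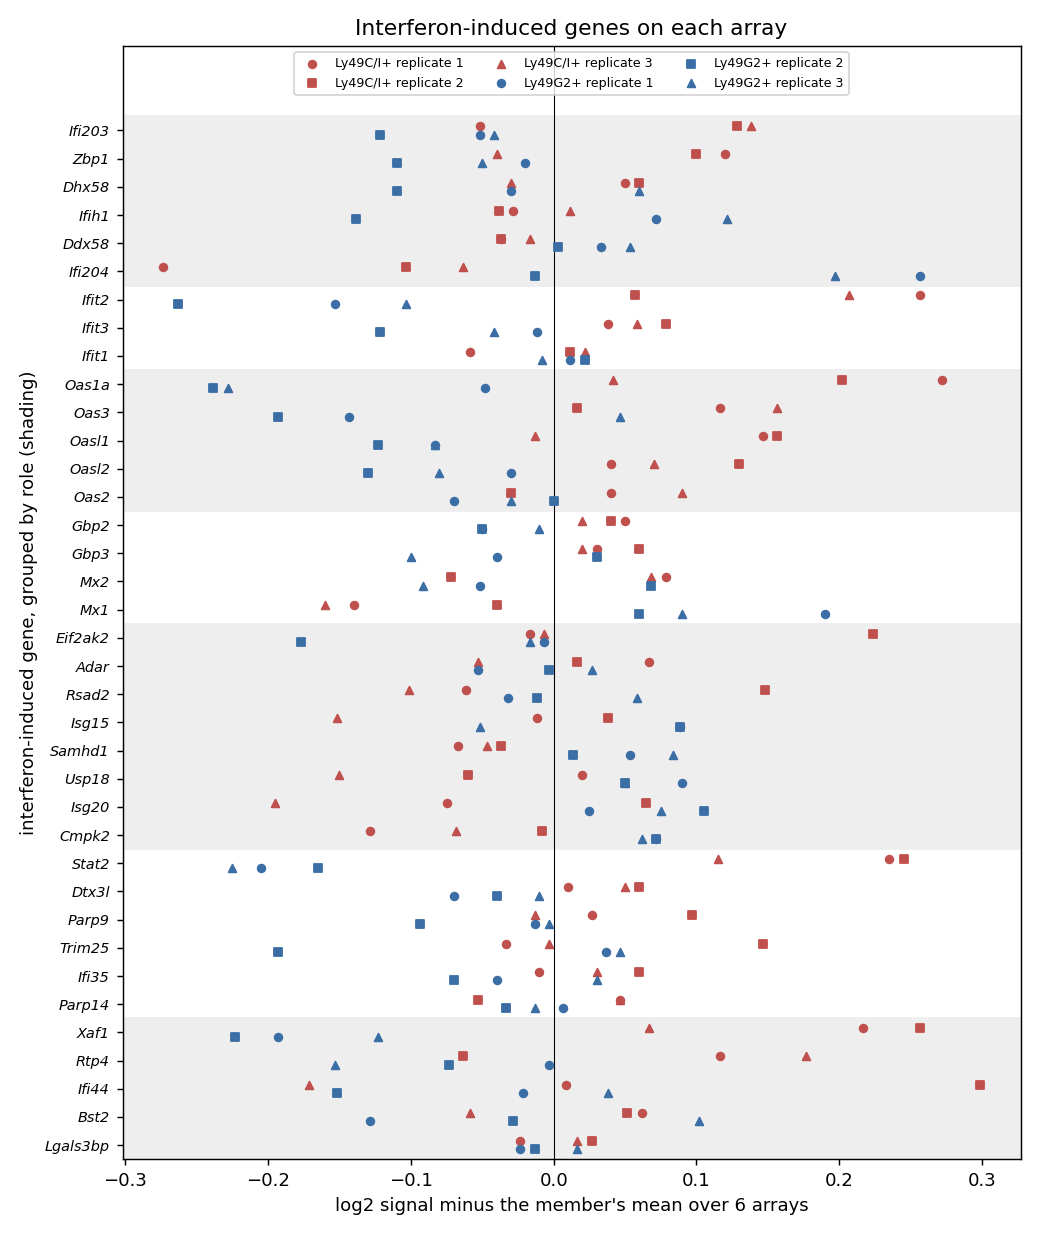
Each point is the log2 signal of a gene on 1 array minus that gene's mean over the 6 arrays (x axis), for the 37 interferon-induced genes grouped by role (y axis, shading), with red for Ly49C/I+, blue for Ly49G2+ and a marker shape for each replicate. The 3 red points of Stat2, Xaf1, Ifit2 and Oas1a lie right of all blue points, those of Mx1 and Ifi204 lie left of them, and most other genes mix.

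The array values of all samples were alike in range, with medians between 7.73 and 7.75 over all probe sets. Ly49G2+ replicate 1 carries a source label that reads as the other subset while its title does not, and its Klra9 value (9.78, the gene of Ly49I) lay with 9.46 and 9.78 of the other Ly49G2+ arrays and below 11.48 to 11.81 in Ly49C/I+ cells. Without that array 4 of the 37 passed toward Ly49C/I+ cells (4.81% of all genes did) and 0 toward Ly49G2+ cells (2.29% did), by limma. NK cell markers were present on all arrays, with group means between 10.78 and 13.26 for all 10 of the list, and of these Klrk1 was higher in Ly49C/I+ cells (1.16-fold). Among 11 T cell markers, Ly49G2+ cells had more of 4, namely Cd3e (4.69-fold), Cd3d (3.41-fold), Cd3g (1.99-fold) and Cd8a (1.64-fold), and the summed linear signal of the list was 10129 to 10407 in Ly49C/I+ and 12736 to 13106 in Ly49G2+ cells. Of 7 markers of plasmacytoid dendritic cells, which make type I interferon, Klk1, Irf8 and Cox6a2 were higher in Ly49G2+ cells (summed signal 7925 to 7959, against 6833 to 7067), while the defining marker Siglech had group means of 5.92 (Ly49C/I+) and 6.11 (Ly49G2+) and Ccr9 at 4.58 and 4.68, near or below the lower quartile of probe set signal (5.84). B cell markers passed in 0 of 8 (summed signal 464 to 498 and 458 to 499), those of macrophages and monocytes in 1 of 9 (Cd14, higher in Ly49G2+ cells, 3453 to 3580 and 3443 to 3605), of granulocytes in 1 of 6 (Ly6g, likewise, 355 to 363 and 360 to 373) and of dendritic cells in 1 of 6 (Itgax, higher in Ly49C/I+ cells, 2097 to 2225 and 1717 to 1765). Beside these marker counts, 6.16% of all genes passed toward Ly49C/I+ cells, 3.72% toward Ly49G2+ cells and 9.88% in either direction. The part of these cell types in the differences of interferon-induced genes was not tested, and fewer cells of a type and less RNA per cell cannot be told apart in sorted bulk samples.

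The promoters of the 4 genes with the lowest p among those that passed are shown with that of Isg15, which did not pass and was added after its values were seen because its promoter holds the most matches of the 5. Each covers 250 bases before to 50 bases after the RefSeq gene start, from build GRCm38.p6: Stat2 at chr10:128270248-128270547 (plus strand), Xaf1 at chr11:72301379-72301678 (plus), Ifit2 at chr19:34550444-34550743 (plus, the start listed first of 2), Oas1a at chr5:120907476-120907775 (minus) and Isg15 at chr4:156200769-156201068 (minus). Capitals mark matches to GAAA, any 2 bases and GAAA again, or to the reverse complement (TTTC, any 2 bases, TTTC), the core of the interferon-stimulated response element, where overlapping matches run together.
Stat2: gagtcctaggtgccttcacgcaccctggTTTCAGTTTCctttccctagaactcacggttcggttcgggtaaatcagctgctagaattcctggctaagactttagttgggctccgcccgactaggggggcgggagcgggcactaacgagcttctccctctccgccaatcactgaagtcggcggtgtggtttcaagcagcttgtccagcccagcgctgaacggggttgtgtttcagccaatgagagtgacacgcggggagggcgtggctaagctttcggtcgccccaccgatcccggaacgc
Xaf1: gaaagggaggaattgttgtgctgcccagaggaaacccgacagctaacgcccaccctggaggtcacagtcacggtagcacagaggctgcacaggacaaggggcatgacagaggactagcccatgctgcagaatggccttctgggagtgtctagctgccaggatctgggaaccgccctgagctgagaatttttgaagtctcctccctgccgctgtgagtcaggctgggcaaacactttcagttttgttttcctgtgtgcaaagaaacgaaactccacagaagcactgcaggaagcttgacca
Ifit2: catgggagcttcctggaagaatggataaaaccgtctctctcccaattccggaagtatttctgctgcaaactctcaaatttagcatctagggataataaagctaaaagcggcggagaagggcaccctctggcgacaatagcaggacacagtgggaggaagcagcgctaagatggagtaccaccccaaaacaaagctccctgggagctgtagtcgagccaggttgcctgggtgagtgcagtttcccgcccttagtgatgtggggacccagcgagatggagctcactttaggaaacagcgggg
Oas1a: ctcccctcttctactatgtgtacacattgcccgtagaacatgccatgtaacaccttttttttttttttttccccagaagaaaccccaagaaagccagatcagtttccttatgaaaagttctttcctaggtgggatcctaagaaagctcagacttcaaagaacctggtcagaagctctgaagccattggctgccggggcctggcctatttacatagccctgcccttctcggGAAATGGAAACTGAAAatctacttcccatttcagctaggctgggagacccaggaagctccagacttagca
Isg15: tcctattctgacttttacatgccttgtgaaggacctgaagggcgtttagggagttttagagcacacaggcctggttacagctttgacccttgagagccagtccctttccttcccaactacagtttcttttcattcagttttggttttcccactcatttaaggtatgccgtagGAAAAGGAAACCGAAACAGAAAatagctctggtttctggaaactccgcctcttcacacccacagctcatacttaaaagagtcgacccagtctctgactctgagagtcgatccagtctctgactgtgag
Isg15 held 3 overlapping matches that began 78, 72 and 66 bases before the start, Oas1a held 2 at 20 and 14 bases, and Stat2 held 1 at 222 bases. Xaf1 held none, and neither did Ifit2 at any of its 2 starts. Of the 37 genes, 27 had a promoter in the table, and 14 of these (51.9%) held a match, against 3.99% of all 27025 genes in it. Among the genes with a promoter, a match was present in 2 of the 5 that were higher in Ly49C/I+ cells and in 12 of the 22 that did not pass. The median log2 difference was 0.072 for the 14 with a match and 0.071 for the 13 without. A match is a run of letters and not a measured binding site.

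Among the signalling and regulatory members, Stat2 stood out. STAT2 is the transcription factor subunit dedicated to type I and type III interferon signalling. Its log2 signal was 9.56, 9.57 and 9.44 on the Ly49C/I+ arrays and 9.12, 9.16 and 9.10 on the Ly49G2+ arrays. All Ly49C/I+ arrays lay above all Ly49G2+ arrays, and the log2 difference was 0.40 ± 0.050 (SE, limma adjusted p = 0.000964). Of its 27 probe sets, 25 were higher in Ly49C/I+ cells and 14 did so without overlap of the groups, where 9.9% of all named probe sets did. Its brightest probe set, at 10.68, was one of the 2 that were lower in Ly49C/I+ cells (-0.14). The authors' deposited table gives Stat2 a ratio of 1.26 with p = 0.00605. Stat2 passed in 16 of 18 alternative analyses. It failed with the median over probe sets taken on each array, where the log2 difference was 0.15, and with the adjusted p-values of the deposited table. The median of its 27 probe set differences was 0.36.

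The other 5 members of that group did not pass. Parp9, Parp14 and Dtx3l, which encode ADP-ribosyltransferases and the ubiquitin ligase partner of PARP9, had log2 differences of 0.07, 0.03 and 0.08. They neighbour each other on chromosome 16 in RefSeq. Trim25, a ubiquitin ligase that activates RIG-I, had 0.07 and Ifi35, a leucine zipper protein, 0.06. All 6 members of the group had differences above 0, as did 45.7% of all genes. In Parp9, Parp14, Trim25 and Ifi35, however, the arrays of the subsets overlapped, and the sign turned for Trim25 in 1 and for Parp14 in 2 of 18 alternatives.

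OAS enzymes bind double-stranded RNA and make oligoadenylates that activate RNase L, while the OAS-like protein OASL1 inhibits translation of Irf7 mRNA in mice. Of the 5 OAS genes, 2 passed toward Ly49C/I+ cells (6.16% of all genes did) and 0 toward Ly49G2+ cells by limma. All 5 differences lay above 0, as did 45.7% over all genes, with a median of 0.20. Oas1a was at 6.93, 6.86 and 6.70 in Ly49C/I+ cells and at 6.61, 6.42 and 6.43 in Ly49G2+ cells. Its groups did not overlap, and the log2 difference was 0.35 ± 0.072 (SE, limma adjusted p = 0.0131). Of its 4 probe sets 2 lay under the lower quartile of signal, and without these the call was lost, as it was without Ly49C/I+ replicate 1 or 2 and without variance moderation. With the median over probe sets taken on each array the Oas1a difference fell to 0.14 and did not pass, while the median of its 4 probe set differences was 0.32. In the authors' deposited table its ratio is 1.14 with p = 0.0635.

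Oasl1 was at 8.25, 8.26 and 8.09 in Ly49C/I+ cells and at 8.02, 7.98 and 8.02 in Ly49G2+ cells. Every Ly49C/I+ array was above every Ly49G2+ array, but replicate 3 by little, and the log2 difference of 0.20 ± 0.054 (SE) passed narrowly (limma adjusted p = 0.0488). The call failed in 13 of 18 alternative analyses, and with 1 array left out it held only without Ly49C/I+ replicate 3. Its neighbour Oasl2 was at 7.67, 7.76 and 7.70 against 7.60, 7.50 and 7.55. These groups did not overlap either, with a log2 difference of 0.16 and an adjusted p of 0.0587, just past the threshold. Oas3 was at 8.23, 8.13 and 8.27 against 7.97, 7.92 and 8.16, where Ly49G2+ replicate 3 reached above the lowest Ly49C/I+ array. Its log2 difference was 0.20 with adjusted p = 0.111, and it passed only without that array (adjusted p = 0.0266, log2 difference 0.27). Oas2 differed by 0.06 (95% interval -0.05 to 0.17).

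The paralogues Oas1b and Oas1g, which are not among the 37, were also higher in Ly49C/I+ cells, by 1.22-fold (limma adjusted p = 0.00448) and 1.23-fold (0.0156). Genes of the Oas1 cluster are close copies, so that probes may take up signal of more than 1 of them. C57BL/6 mice carry a truncated Oas1b allele, as background. With the ISG15-activating enzyme Uba7 (1.14-fold), these were 3 of 7 partners of the OAS and ISG15 systems that passed, all 3 toward Ly49C/I+ cells, where 6.16% of all genes passed. The call of Oas1g failed in 6 of 18 alternatives, among them those without Ly49C/I+ replicate 1 or 2 or Ly49G2+ replicate 1.

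**Figure D2:**
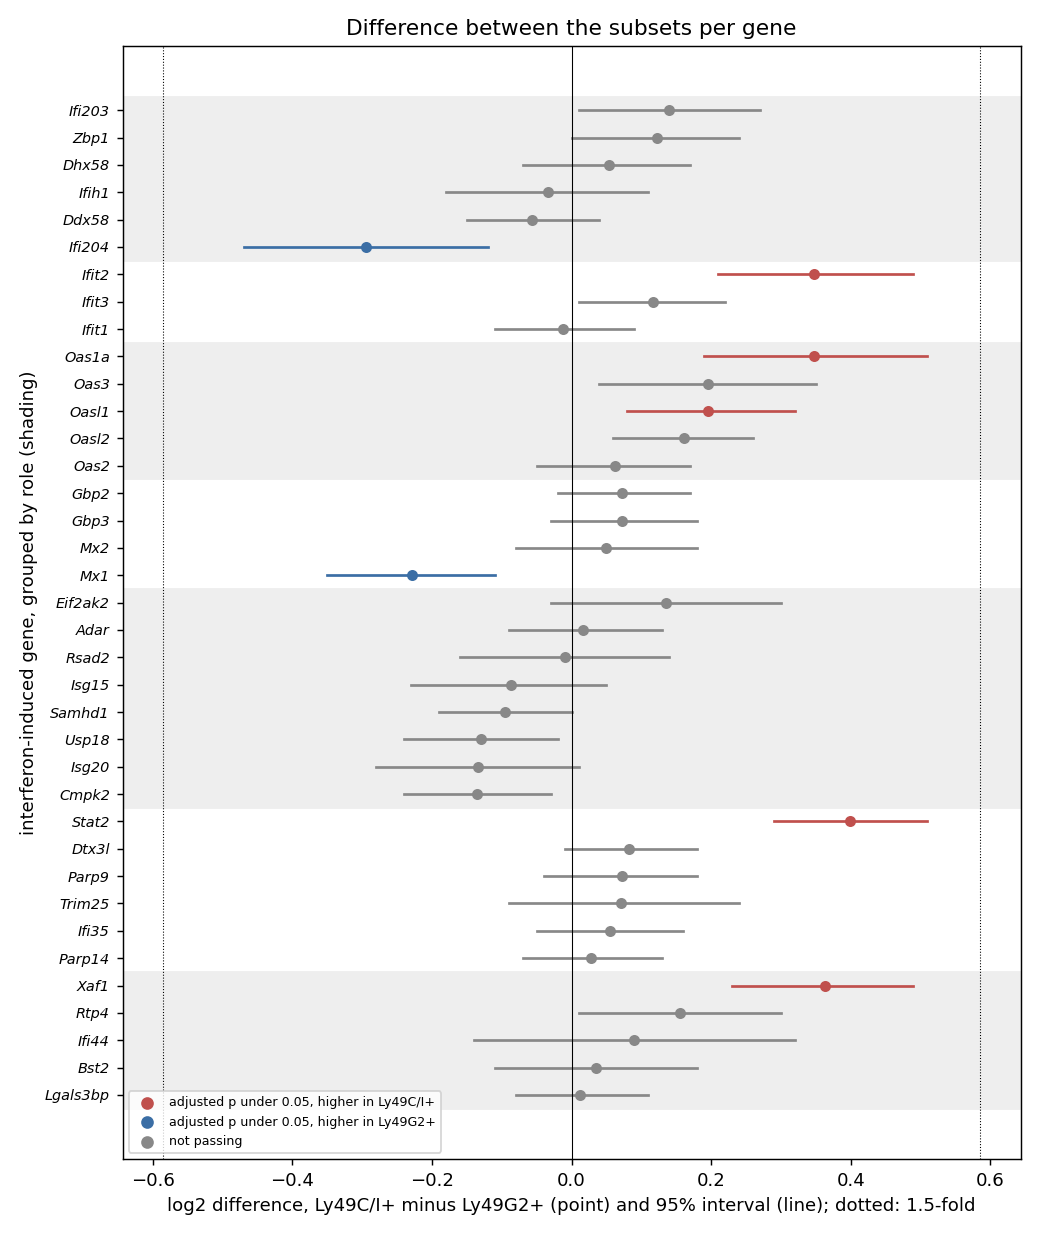
Points show the log2 difference Ly49C/I+ minus Ly49G2+ (x axis) of each interferon-induced gene (y axis, grouped by role with shading) and lines its 95% interval, red or blue where adjusted p was under 0.05. All 5 OAS genes lie right of 0 (45.7% of all genes do), and 6 of the 8 genes in the ISG15 and effector group lie left of it (11651 of all 21442 genes do). No interval centre reaches the dotted 1.5-fold lines.

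IFIT proteins recognise foreign RNA and block its translation. Ifit2 was at 7.24, 7.04 and 7.19 in Ly49C/I+ cells and at 6.83, 6.72 and 6.88 in Ly49G2+ cells. The groups did not overlap, at a difference on the log2 scale of 0.35 ± 0.063 (SE, limma adjusted p = 0.00705). It had 4 probe sets, of which 3 were higher on every Ly49C/I+ array and the last showed -0.03. Of those 3, 1 lay under the lower quartile of signal, and without it the log2 difference was 0.27, which still passed. In the authors' deposited table the ratio is smaller, 1.12 with p = 0.0182, and after adjustment over that table Ifit2 did not pass. The call was also lost with the median over probe sets and without variance moderation. Ifit3, next to it on chromosome 19, was at 6.52, 6.56 and 6.54 against 6.47, 6.36 and 6.44. These arrays did not overlap, yet the log2 difference of 0.12 did not pass (adjusted p = 0.157). Ifit1 was between 7.28 and 7.36 on all 6 arrays, with a difference of -0.01 and a 95% interval of -0.11 to 0.09. The difference of Ifit2 was thus not accompanied by a call for either of the other IFIT genes, and the contrast between them was not tested.

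Xaf1 encodes a pro-apoptotic partner of the caspase inhibitor XIAP. Its log2 signal was 8.87, 8.91 and 8.72 in Ly49C/I+ cells and 8.46, 8.43 and 8.53 in Ly49G2+ cells, without overlap. The log2 difference was 0.36 ± 0.058 (SE, limma adjusted p = 0.00341). Its 9 probe sets were unequal: those at positions 5, 6 and 7 in ID order differed by 0.62, 0.75 and 1.14, whereas the other 6 differed by 0.02 to 0.22. In the authors' deposited table the ratio is 1.15 with p = 0.00673, which did not pass after adjustment. Nor did Xaf1 pass without variance moderation, or when probe sets were combined by their median. The size of the difference therefore rests largely on 3 neighbouring probe sets, and which exons they cover was not examined.

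The remaining membrane, regulatory and secreted products did not pass. Rtp4, a chaperone of membrane receptors, had a log2 difference of 0.16 with a 95% interval of 0.01 to 0.30. In the authors' deposited table its ratio is 1.14 with p = 0.00107, and after Benjamini-Hochberg adjustment over that table it was the 1 gene of the 37 that passed (adjusted p = 0.0348), where 5.36% of all genes did. Bst2 (tetherin), which holds budding virions at the cell surface, differed by 0.04 (interval -0.11 to 0.18). Lgals3bp, a secreted glycoprotein that had the highest mean signal of the 37, was at 11.82, 11.87 and 11.86 against 11.82, 11.83 and 11.86, a difference of 0.01. Ifi44 had the widest spread, 6.02 to 6.49 within Ly49C/I+ cells alone, and a difference of 0.09 (interval -0.14 to 0.32).

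The GTPases went both ways. Mx1, whose product blocks influenza virus replication in wild mice, is non-functional in C57BL/6 and most other laboratory strains because of an exon deletion, as background. It was at 7.93, 8.03 and 7.91 in Ly49C/I+ cells and at 8.26, 8.13 and 8.16 in Ly49G2+ cells. All Ly49G2+ arrays were higher, at a difference on the log2 scale of -0.23 ± 0.054 (SE, limma adjusted p = 0.0242). Of 10 probe sets 8 were higher in Ly49G2+ cells, 3 of them on every array, where 8.7% of all named probe sets were. The call failed in 9 of 18 alternative analyses, including those without Ly49C/I+ replicate 1 or 3 and without Ly49G2+ replicate 1 or 3. The authors' deposited table gives Mx1 a ratio of 0.916 with p = 0.0189. Mx2, with the lowest mean signal of the 37 and 8 of 11 probe sets under the lower quartile, was at 5.32, 5.17 and 5.31 against 5.19, 5.31 and 5.15. Gbp2 and Gbp3, guanylate-binding proteins that attack the vacuoles of intracellular microbes, had log2 differences of 0.07 each and did not pass.

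**Figure D3:**
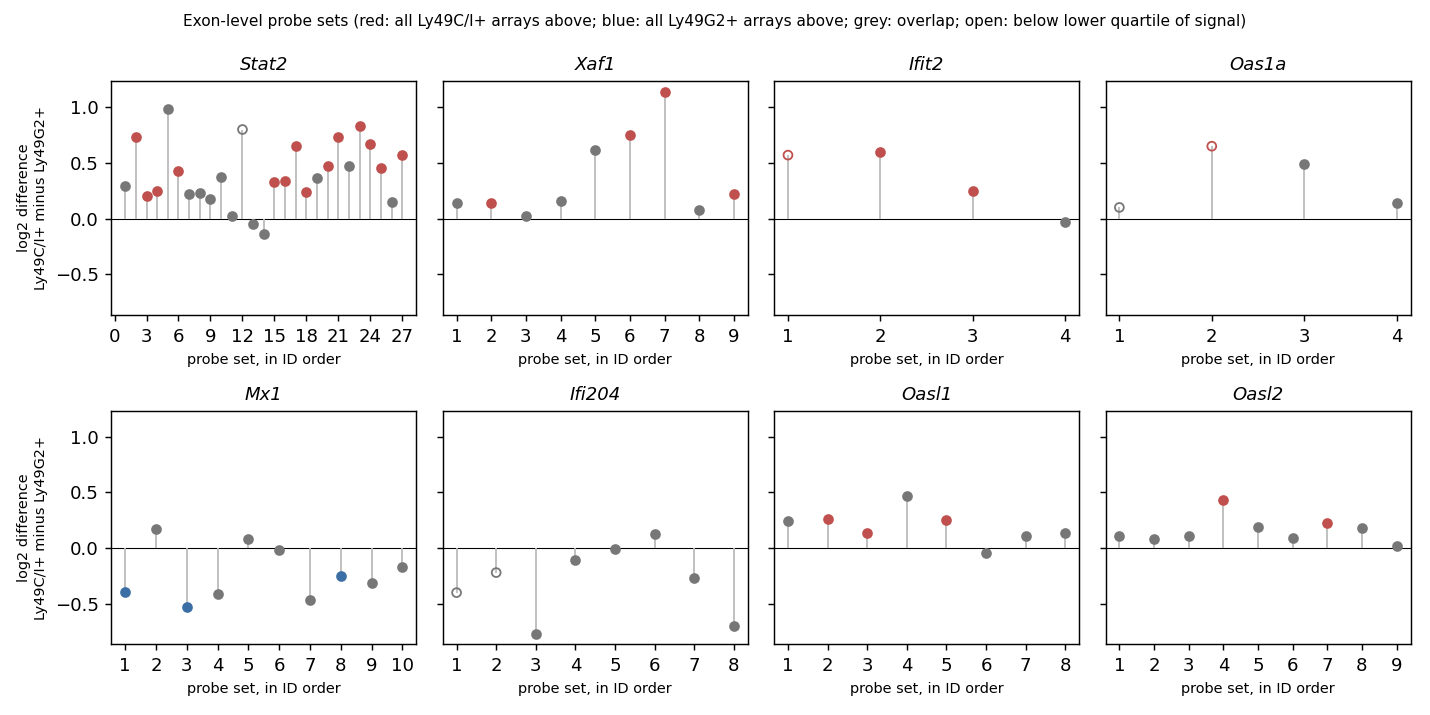
Log2 difference Ly49C/I+ minus Ly49G2+ (y axis) of each exon-level probe set in ID order (x axis) for the 7 genes that passed and Oasl2, with red where all Ly49C/I+ arrays lay above, blue where all Ly49G2+ arrays lay above, grey where they overlapped and open circles below the lower quartile of signal. Of 27 Stat2 points 25 lie above 0, the Xaf1 differences peak at positions 5 to 7, and Ifi204 has only grey or open points.

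Of the sensors, Ifi204 was the gene that passed. It encodes a DNA-binding protein of the interferon-inducible p200 family that can act upstream of STING in mice. Its log2 signal was 7.29, 7.46 and 7.50 in Ly49C/I+ cells and 7.82, 7.55 and 7.76 in Ly49G2+ cells. Ly49G2+ replicate 2 lay just above the highest Ly49C/I+ array, and the log2 difference was -0.29 ± 0.078 (SE, limma adjusted p = 0.0426). Its 8 probe sets all overlapped between the subsets. The 3 brightest, at 8.51, 10.09 and 12.76 in Ly49C/I+ cells, differed by -0.11, -0.01 and 0.13, and the largest differences (-0.77 and -0.70) came from probe sets at 5.59 and 6.22. The call failed in 11 of 18 alternative analyses, and with 1 array left out it held only without Ly49G2+ replicate 2. The authors' deposited table gives p = 0.439.

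Its relative Ifi203 had a difference of the other sign, 0.14 (interval 0.01 to 0.27), and did not pass. The RNA helicases Ddx58 (RIG-I), Ifih1 (MDA5) and Dhx58 (LGP2), which detect viral RNA in the cytosol, had log2 differences of -0.06, -0.03 and 0.05. Ddx58 was even among arrays, at 11.40, 11.40 and 11.42 on the Ly49C/I+ arrays and 11.47, 11.44 and 11.49 on the Ly49G2+ arrays, which did not overlap but differed by little (95% interval -0.15 to 0.04). Zbp1, a sensor of Z-form nucleic acid that triggers necroptosis, had 0.12 and an adjusted p of 0.213.

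The ISG15 system and the RNA or nucleotide effectors were the role in which more genes lay toward Ly49G2+ cells, 6 of 8. Of all 21442 genes, 11651 lay that way too. The sign of Rsad2 turned in 5 of 18 alternatives, and 0 of the 8 genes passed by limma. At an unadjusted p under 0.05 there were 3, namely Cmpk2, Usp18 and Samhd1, where 10.7% of all genes had such a p toward Ly49G2+ cells. Cmpk2, a mitochondrial nucleotide kinase, was at 6.80, 6.92 and 6.86 in Ly49C/I+ cells and at 7.00, 7.00 and 6.99 in Ly49G2+ cells. The arrays did not overlap, and the log2 difference was -0.14 with adjusted p = 0.104. Usp18, which removes ISG15 from proteins and silences the interferon receptor, was at 9.63, 9.55 and 9.46 against 9.70, 9.66 and 9.66. It too had no overlap, with -0.13 and adjusted p = 0.158. Samhd1, which depletes nucleotides, had -0.10 (adjusted p = 0.217).

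Isg15, the ubiquitin-like modifier whose promoter is printed above, had 3 probe sets, 2 of them under the lower quartile of signal. It was at 5.59, 5.64 and 5.45 against 5.69, 5.69 and 5.55, with overlap and a 95% interval of -0.23 to 0.05. Isg20, an RNA exonuclease, had -0.13 and Rsad2 (viperin), which makes a chain-terminating nucleotide, -0.01. Rsad2 and Cmpk2 are neighbours on chromosome 12. Eif2ak2 (PKR), which stops translation on sensing double-stranded RNA, and Adar, which edits such RNA, had 0.14 and 0.02 with overlapping arrays.

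Counted over the 37, the arrays did not overlap in 9 genes with Ly49C/I+ above (24.3%, against 14.3% of all genes) and in 6 with Ly49G2+ above (16.2%, against 13.5%). Over their 390 probe sets, which are not independent of each other, 13.3% were higher on every Ly49C/I+ array, against 9.9% of all named probe sets, and 6.15% on every Ly49G2+ array, against 8.7%. Within the Ly49G2+ group, replicate 2 was the lowest array in 23 of the 37 genes, where it was lowest in 37.7% of all genes. Within the Ly49C/I+ group, replicate 2 was the highest in 20 of 37, where it was highest in 44.7% of all genes. Without Ly49G2+ replicate 2, 4 of the 37 passed toward Ly49C/I+ cells (5.19% of all genes) and 2 toward Ly49G2+ cells (3.57%). Without Ly49C/I+ replicate 2 the counts were 3 (4.01% of all genes) and 1 (2.29%). In the authors' deposited table the p-value before adjustment was under 0.05 for 15 of the 37 (40.5%, against 21.1% of all genes), 10 of them with the higher mean in Ly49C/I+ cells, and 35 of the 37 had the direction found here.

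**Figure D4:**
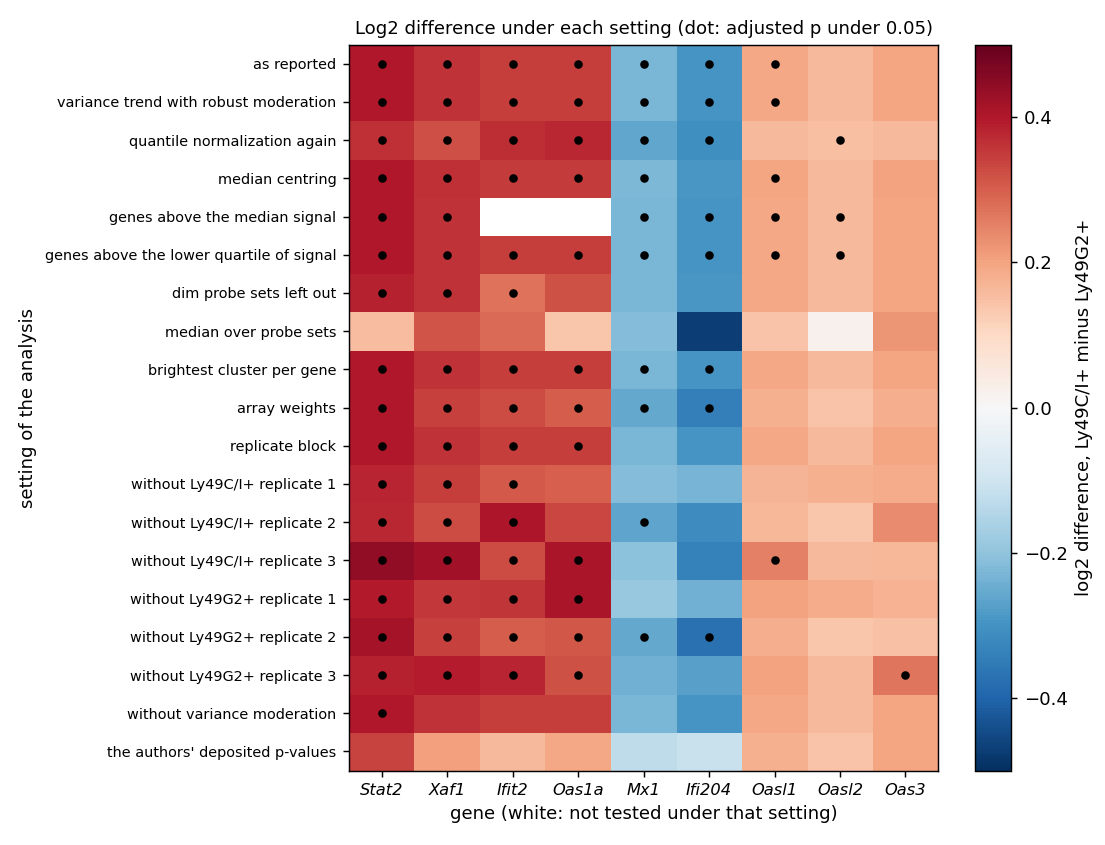
Colour gives the log2 difference Ly49C/I+ minus Ly49G2+ of 9 genes (x axis) under each setting of the analysis (y axis), with a dot where adjusted p was under 0.05 and white where the gene was not tested. Stat2 keeps its dot in all rows but 2, and the row for the median over probe sets has none.

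Other genes of the interferon pathway were read from 7 lists of 104 measured genes, none of them among the 37. Of these, 12 (11.5%, against 6.16% of all genes) passed toward Ly49C/I+ cells and 4 (3.85%, against 3.72%) the other way, with a median log2 difference of 0.023. With the p-values deposited by the authors the counts were 6 and 6, and without variance moderation 4 and 3. The shares of all genes, here and for each list below, include dim genes, whereas 83 of the 104 lay above the median signal. With only genes above it tested, 16 of the 83 passed toward Ly49C/I+ cells, against 1606 of 10721 genes. Toward Ly49G2+ cells 5 of the 83 passed, against 941 of 10721. Of 11 genes of type I interferon receptor and signalling, 1 passed (9.09%, against 9.88% of all genes in either direction). This was the transcription factor Irf5, 1.23-fold higher in Ly49G2+ cells (limma adjusted p = 0.00248). Irf9, whose product acts with STAT2, did not pass and had a log2 difference of 0.15 with no overlap of the arrays (adjusted p = 0.109). The receptor chains Ifnar1 and Ifnar2 differed by -0.02 and 0.01, the kinases Jak1 and Tyk2 by -0.11 and 0.06, and Irf7, the amplifier of the response, by 0.06.

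Of 10 interferon genes, 0 passed by limma. At an unadjusted p under 0.05, where 23.0% of all genes lay (10.7% toward Ly49G2+ cells), there were 2, both toward Ly49G2+ cells. These were Ifna2 (log2 difference -0.12, adjusted p = 0.185) and Ifng (-0.11, adjusted p = 0.203), the latter chosen after its value was seen. Ifng, the NK cell cytokine interferon gamma, had a mean of 11.19 (Ly49C/I+) against 11.30 (Ly49G2+), and Ifnb1 at 5.52 and 5.59, below the lower quartile of probe set signal. Upstream of interferon, 1 of 11 sensing genes passed (9.09%, against 9.88% of all genes in either direction). This was the kinase Tbk1 (1.17-fold higher in Ly49C/I+ cells, limma adjusted p = 0.0242), which missed the threshold under 8 of 18 alternatives.

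Of 9 negative regulators the phosphatase genes Dusp1 (1.23-fold) and Ptpn6 (SHP-1, 1.15-fold) passed toward Ly49C/I+ cells (6.16% of all genes did). The other way 0 passed (3.72% of all genes did). Of 19 genes of the interferon gamma receptor and its inducible products, 2 passed toward Ly49C/I+ cells (10.5%, against 6.16% of all genes) and 0 the other way. These were the chemokine Cxcl10 (1.29-fold, limma adjusted p = 0.000728) and the GTPase Gbp4 (1.18-fold). Cxcl10 passed in all 18 alternative analyses. A last list of 37 further interferon-induced genes had 4 higher in Ly49C/I+ cells (10.8%, against 6.16% of all genes), namely the lysosomal reductase Ifi30 (1.22-fold, passing in 18 of 18 alternatives), Sp100 (1.19-fold), Apol9a (1.22-fold) and Lgals9 (1.14-fold). The ratio of Sp100 in the authors' deposited table is 1.02, and its log2 difference was -0.002 for its brightest array row alone. The same list had 3 higher in Ly49G2+ cells (8.11%, against 3.72% of all genes), the membrane proteins Ifitm3 (1.25-fold) and Ifitm1 (1.11-fold), which block viral fusion, and the transcription factor Irf8 (1.17-fold), which is also in the plasmacytoid dendritic cell list above. Ifitm1 lay outside the naming rule and was named after its value was seen. The calls of Lgals9 and Ifitm1 each failed in 10 of 18 alternatives, that of Uba7 in 8 and that of Ptpn6 in 7.

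**Figure D5:**
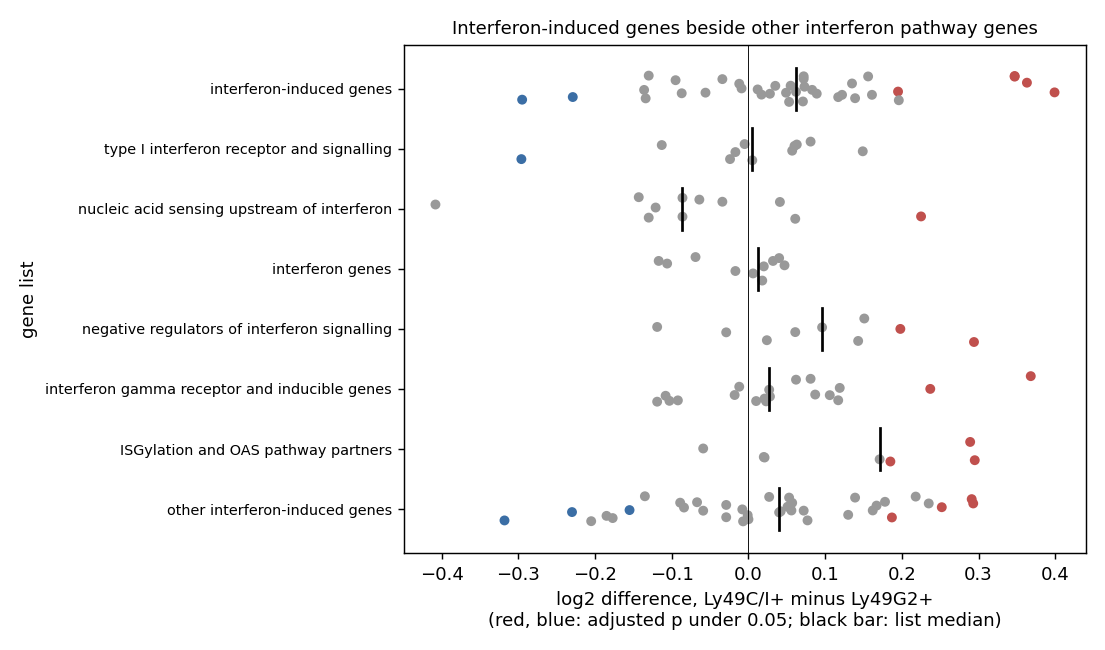
Log2 differences Ly49C/I+ minus Ly49G2+ (x axis) of the 37 interferon-induced genes and of 7 lists of other interferon pathway genes (y axis), 1 point per gene, red or blue where adjusted p was under 0.05, with a black bar at each list's median. The interferon-induced genes spread from -0.29 to 0.40 around 0.062, and the interferon genes themselves stay between -0.12 and 0.05.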

How the data were processed

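RNA of 6 sorted NK cell samples, 3 per group by the sample titles, was hybridised to Affymetrix arrays. The submitters' processing notes name RMA and Partek, without versions in the sources used here. For each array the authors deposited log2 signals by exon-level probe set. A further table, deposited by the authors, covers 35556 transcript clusters and holds log2 group means, an ANOVA p-value, a ratio and signed fold scores. The deposited p-values and ratios served as an alternative.

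Probe sets were joined to clusters as the unbroken run of IDs after each cluster ID (241383 placed, 193 left out). Cluster means correlated with the deposited means at r = 0.990 and 0.990, across clusters, which are not independent. Symbols were updated through RefSeq accessions of GRCm38.p6. Log2 values were averaged over probe sets and then over clusters, giving 21442 genes. Each of the 37 genes had 1 cluster. Arrays give no read depth, and 3 per group limit the precision.

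Differences were tested, two-sided, with limma 3.58.1 in R 4.3.3 (lmFit, eBayes, no filter). The same fit was also run on simulated data, built from the means and spreads of these arrays. Python 3.11.15, pandas 2.3.3, numpy 2.4.6 and matplotlib 3.10.9 did the rest. The members and lists were chosen with earlier results of these data known. Named are all 37 genes (values per array for the 12 of lowest p and the highest and lowest signal), and in each list the passing genes, up to 6, or else that of lowest p. Other named genes were chosen after their values were seen. Of 110 listed pathway genes 104 were measured. No column of samples was left unused. The 18 alternatives concerned moderation, normalization, dim signals, combination of probe sets, array weights, a replicate block, each array left out and the deposited p-values.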

Additional observations from a re-analysis of the deposited data

How the results depend on the processing

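Each pair of counts gives genes passing toward Ly49C/I+ cells first and toward Ly49G2+ cells second, at adjusted p under 0.05. With the median over probe sets they were 460 and 219 of all genes, 0 and 0 of the 37 interferon-induced genes, and 3 and 1 of the pathway lists. Without variance moderation they were 554 and 344 of all genes, 1 and 0 of the 37, and 4 and 3 of the lists. Taking the deposited p-values of the authors they were 695 and 454, 1 and 0, and 6 and 6 of the lists. With dim probe sets left out, 3 and 0 of the 37 passed (5.41% and 3.21% of all genes), and with median centring 1 passed toward Ly49G2+ cells (3.4% of all genes). A variance trend with robust moderation and array weights each gave 7 pathway genes higher in Ly49G2+ cells. Leaving out each array in turn gave 859 to 1112 and 410 to 765 of all genes, 3 to 5 and 0 to 2 of the 37, and 7 to 10 and 3 to 4 of the lists. Of the 37, 3 passed toward Ly49C/I+ cells without Ly49C/I+ replicate 1 or 2. Toward Ly49G2+ cells 0 passed without Ly49C/I+ replicate 1 or 3 or Ly49G2+ replicate 1 or 3, and 1 without Ly49C/I+ replicate 2. The lists had 7 toward Ly49C/I+ cells without Ly49C/I+ replicate 1. The log2 difference of Sp100 turned to -0.002 with the brightest array row. The causes were not tested. The median difference of the 37 stayed between 0.034 and 0.086. For single genes among the 37, 604 comparisons with an alternative left the result unchanged, 47 lost a call and 5 gained one. The unchanged results include those of the 30 genes that did not pass and stayed so. All 47 losses fell on the 7 genes that passed, from 2 of 18 alternatives for Stat2 to 13 of 18 for Oasl1. The labels do not say whether same-numbered arrays shared a source. Their deviations from the group means correlated at -0.076, -0.186 and -0.046, and 0 of the 6 arrays correlated best with its own number. With 3 arrays per group such correlations cannot show whether arrays were paired. The replicate block gave 495 of all genes and 0 of the 37 toward Ly49G2+ cells.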
